A study of Mus musculus with 26 samples.

Results

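The 15 primary osteosarcomas of a mouse model were ranked by the intensity of Ifit1, an interferon-induced gene, and the 5 tumours with the highest level were compared with the 5 with the lowest. These 10 tumours are 10 of 26 arrays, and each array holds the RNA of 1 sample. Osteosarcoma is a bone cancer whose cells resemble osteoblasts and lay down bone matrix. The other arrays hold the 5 primary tumours between the classes, 4 osteosarcoma cell lines, 4 secondary tumours (3 labelled as transplants and 1, number 66, as tumour tissue from a cell line, or in its title as a cell line) and 3 cultures of wild-type osteoblasts differentiated in vitro. The labels give the primary tumours a number each and no genotype, strain, age, sex, site or treatment. The titles of the 4 secondary samples carry the code OPflR, which the labels do not explain, beside numbers shared with primaries 29, 64, 66 and 94. The published model behind these tumours deletes p53, in some animals together with Rb, in osteoblast precursors through Osx-Cre, and which alleles each tumour carried is not known here. The members were chosen by measured values, the Ifit1 intensities of these same arrays, so Ifit1 is described and is not a result, and a gene that follows Ifit1 across tumours was bound to part the classes.

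Interferons are secreted proteins, and cells release those of type I on sensing viral or misplaced nucleic acid. Type I interferons bind the receptor of Ifnar1 and Ifnar2, whose kinases Jak1 and Tyk2 activate a transcription factor complex that holds Stat2 and Irf9, and interferon gamma acts through Ifngr1 and Ifngr2. The complex binds an element with a repeated GAAA core in the promoters of a large set of genes that block viral replication, raise antigen presentation and later damp the response. Ifit1 belongs to this set: its protein binds RNA whose cap lacks the methylation of the cell's own messages. In tumours such genes can be on in the tumour cells or in immune cells among them, and a bulk array does not separate the sources.

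Promoters of 5 genes are shown. Ifit1 set the classes, and the other 4 genes were higher in every Ifit1-high tumour than in every Ifit1-low tumour. They had the largest differences among such genes with the motif in the 150 bases shown. Other such interferon genes, with a match in a longer window (Ifih1 and Oas1a) or with no match, are named below and not shown. Each line gives the 150 bases before the annotated start from RefSeq (GRCm38.p6, plus strand, 5′ to 3′), and capitals mark matches to GAAANNGAAA or, on the other strand, TTTCNNTTTC.
Ifit1, chr19:34640739-34640888: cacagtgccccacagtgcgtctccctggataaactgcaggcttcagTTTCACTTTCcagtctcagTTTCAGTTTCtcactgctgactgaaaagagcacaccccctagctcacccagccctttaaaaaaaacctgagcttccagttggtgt
Gbp3, chr3:142559894-142560043: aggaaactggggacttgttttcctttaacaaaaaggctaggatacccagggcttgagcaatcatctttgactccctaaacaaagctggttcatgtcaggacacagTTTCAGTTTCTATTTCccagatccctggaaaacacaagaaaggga
Ddx60, chr8:61927937-61928086: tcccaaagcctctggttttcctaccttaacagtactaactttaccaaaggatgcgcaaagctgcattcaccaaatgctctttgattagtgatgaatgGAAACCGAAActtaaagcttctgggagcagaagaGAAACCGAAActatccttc
Gbp7, chr3:142530186-142530335: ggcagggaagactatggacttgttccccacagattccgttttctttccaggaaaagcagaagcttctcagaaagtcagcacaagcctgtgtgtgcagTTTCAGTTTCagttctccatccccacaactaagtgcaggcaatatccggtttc
Ifit3, chr19:34583379-34583528: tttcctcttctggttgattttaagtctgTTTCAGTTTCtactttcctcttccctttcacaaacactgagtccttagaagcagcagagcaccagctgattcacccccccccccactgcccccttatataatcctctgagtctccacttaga
Ifit1 held 2 matches that began 104 and 85 bases before its start, and Ddx60 held 2 that began 53 and 19 bases before. The matches of Gbp3 overlapped each other at 45 and 39 bases, that of Gbp7 began at 53 and that of Ifit3 at 122. The motif was searched on both strands, overlaps allowed, in windows of 300 bases (250 before to 50 after the start), and 1131 of 32851 windows held it, or 3.44%. Of the 78 measured interferon-induced genes described below, 60 had a window and 26 of these held a match (43.3%), against 375 of 10363 tested genes with a window (3.62%). Among the 15 of them whose classes did not overlap, 10 had a window and 6 held a match: Gbp3, Ddx60, Gbp7, Ifit3, Ifih1 and Oas1a. Ifit2, Oasl1, Oasl2 and Phf11d held none of these letters in the window. A match is a description of the sequence and was not tested as a binding site.

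Ifit1 intensity formed a gradient over the 15 tumours. It was 533.4, 471.0, 427.9, 228.0 and 176.8 in tumours 66, 64, 330, 29 and 331, which form the Ifit1-high class. It was 50.5, 33.3, 29.6, 19.6 and 17.8 in tumours 353, 183, 179, 182 and 119, the Ifit1-low class. The tumours between, 176, 12, 87, 94 and 188, ran from 124.9 to 62.4, so that 176.8 stood just inside and 124.9 just outside the high class, and 50.5 just inside and 62.4 just outside the low class. After scaling to a common 75th percentile or quantile normalization, all 5 tumours of each class were still chosen.

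**Figure D1:**
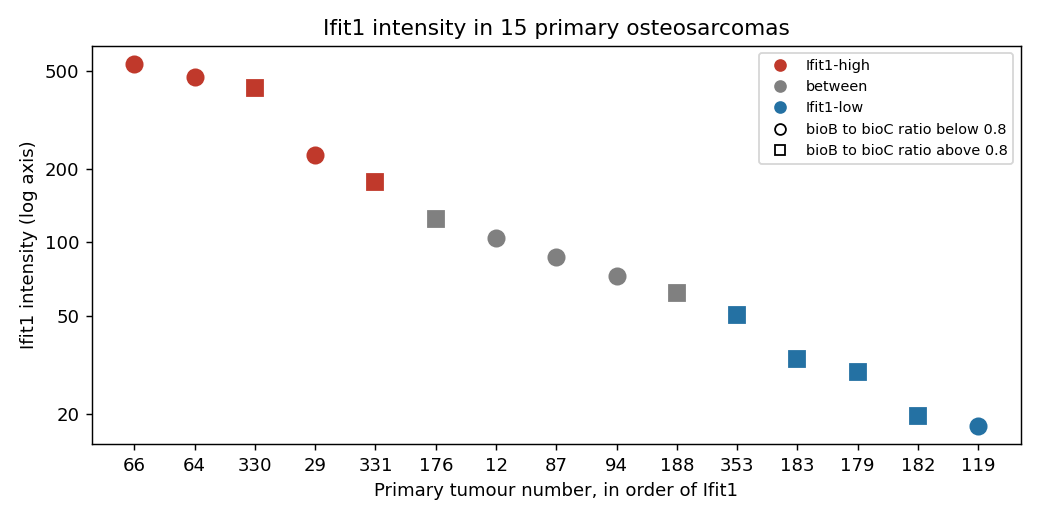
Ifit1 intensity (log axis) in the 15 primary tumours in the order of rank, 1 point a tumour. Colour gives the class and shape the ratio of the bioB to bioC control transcripts, which was below 0.8 in 3 of 5 Ifit1-high and 1 of 5 Ifit1-low tumours; the values step down without a gap between classes.

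Medians of the 15 primary arrays lay between 50.4 and 58.8 intensity units, and 2 such arrays correlated at most at 0.977, so none was a copy of another. The ratio of bacterial control transcripts bioB and bioC, added at hybridisation, parted the primary tumours into 2 control ratio sets, which the labels do not describe. Tumours 66, 64 and 29 of the high class and tumour 119 of the low class were in the set with the lower ratio (0.418 to 0.436), and the other 6 were in the set at 1.18 to 1.23. The ratio of the Gapdh 5′ to 3′ probe sets, which falls with degraded RNA, was 0.656, 0.755, 1.03, 0.810 and 1.02 in the high class in the order of rank and 0.845 to 1.01 in the low class. Over the 15 primary tumours the Gapdh ratio divided the arrays as the control ratio did. It was 0.656 to 0.845 in the set with the lower bioB to bioC ratio and 0.909 to 1.03 in the other. The 2 ratios therefore cannot be told apart here. The part of these differences in the results was not tested beyond the settings given beside them. Tumour 330 stood apart from the other tumours of its class in bone genes: the mean of 9 osteoblast identity genes was 8.25 on the log2 scale, against 11.02 to 11.20 in the other 4.

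Of 12886 genes tested between the classes, 0 (0%) were called by limma as higher and 0 (0%) as lower in Ifit1-high tumours, where a call needed a Benjamini-Hochberg adjusted p below 0.05 and a fold of at least 2. At an unadjusted p below 0.05 and the same fold, 77 genes were higher (0.598%) and 13 lower (0.101%), and at any fold 590 genes (4.58%) had an unadjusted p below 0.05. Without tumour 66 the first count was 49, without 330 it was 134 and without 331 it was 120. Every Ifit1-high tumour lay above every Ifit1-low tumour for 67 genes (0.52%) and below for 22 (0.171%). After 75th percentile scaling these counts were 48 and 43, and after quantile normalization 44 and 44, on the same genes. With 5 tumours a class some genes part without overlap by chance, and the share expected so was not computed. The 4.58% at an unadjusted p below 0.05 is no more than that threshold gives by chance. Single genes named below may be among such genes. Because 0 genes passed, differences below are values of these tumours, and "did not overlap" means that each tumour of one class lay beyond each of the other.

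The 67 genes higher without overlap held 17 of the 87 tested genes of the interferon lists, or 25.4% of the 67, where those lists make up 0.675% of the genes tested. Of the 15 largest such differences, 12 were in genes of these lists. The 22 genes lower without overlap held 0 of them. With all 15 primary tumours in the fit, so that the spread rests on more arrays, limma called 4 genes higher: Oasl2 (adjusted p = 0.0126), Ddx60 (0.02), Rtp4 (0.02) and Ifih1 (0.0408). With Ifit1 as a continuous measure over the 15 tumours, its slope scaled to the class difference in Ifit1, 15 genes rose with it and 0 fell, and Phf11d passed the adjusted p (0.0177) below the fold minimum. These were Oasl2, Ifit3, Ifih1, Irf7, Rtp4, Ddx60, Gbp3, Gbp7, Usp18, Iigp1, AW112010, Dhx58, Gm4951, Irgm1 and Cxcl10, at limma adjusted p from 1.32e-05 (Oasl2) to 0.0469 (Cxcl10). Both fits use the Ifit1 values that set the classes. Their calls therefore describe genes that vary with Ifit1 and are not separate evidence. The Ifit family and the Gbp and Oas families have near-identical members, and a probe set can pick up more than one of them.

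Oasl2, an antiviral protein of the oligoadenylate synthetase family, had the largest difference. Its log2 intensity was 9.17, 8.15, 8.80, 8.10 and 7.21 in tumours 66, 64, 330, 29 and 331 and 6.50, 5.57, 5.25, 5.41 and 5.07 in tumours 353, 183, 179, 182 and 119. Tumour 331 was the lowest of its class and tumour 353 the highest of the other, and they were still apart. The difference was 2.73 (SE 0.38, 6.62-fold, limma adjusted p = 0.122). Here and below, the values of a class are listed in this order of tumours.

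Gbp3, a guanylate-binding protein that acts on membranes around intracellular microbes, was at 9.29, 7.65, 8.62, 7.52 and 6.37 in the high class. In the low class it was at 5.83, 5.87, 5.06, 4.91 and 4.63. The spread was widest within the high class, where tumours 66 and 330 led, and the difference was 2.63 (SE 0.50, 6.19-fold, adjusted p = 0.413). Ddx60, a helicase-like cofactor of RNA sensing, was at 6.79, 6.50, 6.03, 4.95 and 5.84 in the high class. It lay at the floor of 3.64 in 4 low tumours and at 4.12 in tumour 179, so the low class gives close to a bound. Its difference was 2.28 (SE 0.30, adjusted p = 0.122).

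Rtp4, a chaperone of receptor transport that restrains some viruses, was at 9.96, 9.32, 9.33, 9.31 and 8.59 in the high class. In the low class it was at 7.50, 6.53, 7.56, 6.38 and 7.56, and no high tumour came within 1 log2 unit of the low class. The difference was 2.20 (SE 0.32, adjusted p = 0.122). Ifih1 encodes MDA5, which senses long double-stranded RNA. It was at 8.28, 7.86, 8.02, 7.19 and 6.61 in the high class and 5.45, 6.03, 5.79, 5.30 and 4.69 in the low class. The gap between tumours 331 and 183 was the narrowest point, and the difference was 2.14 (SE 0.35, adjusted p = 0.228).

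**Figure D2:**
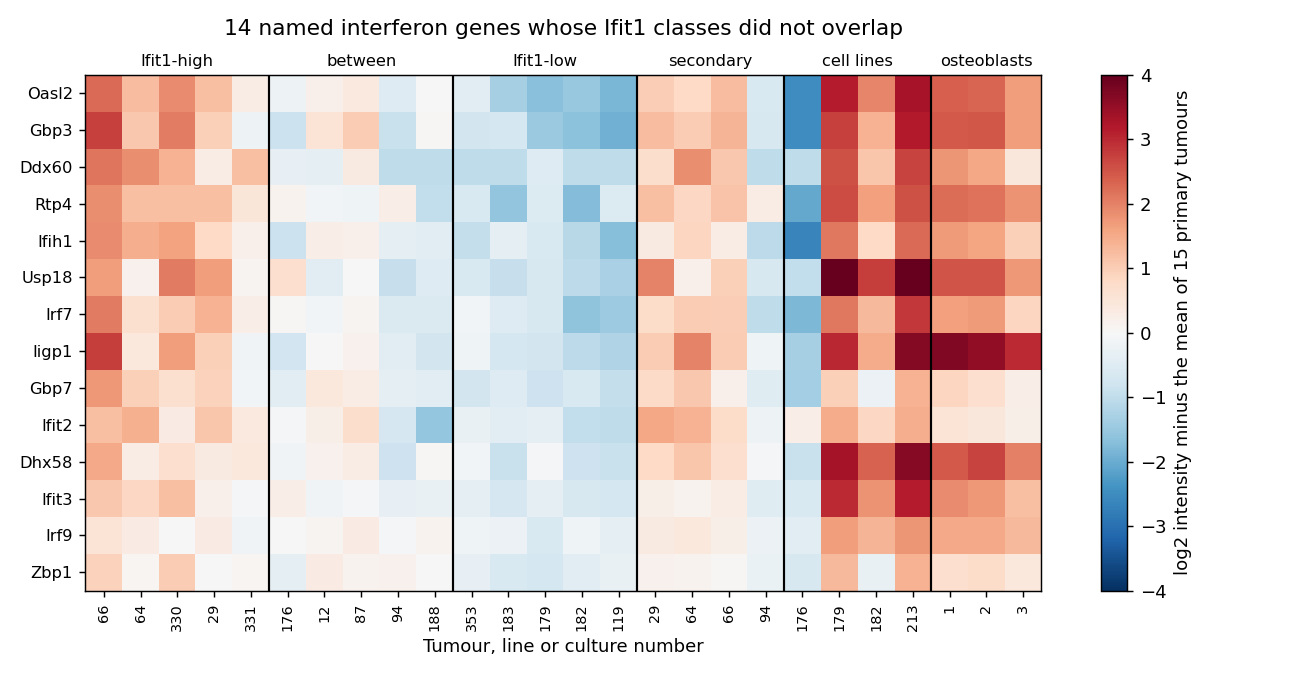
Log2 intensity of 14 named interferon genes (rows) whose Ifit1-high and Ifit1-low tumours did not overlap, on all 26 arrays (columns), each minus its mean over the 15 primary tumours. The colour scale ends at 4 and -4; tumour 66 is among the strongest of the high class, and cell lines 179, 182 and 213 and the osteoblast cultures exceed most tumours while cell line 176 lies low.

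Receptor and kinase genes, which start the response, had a median difference near 0. Interferon ligands were hardly measured: of 12 named genes of the ligand list, which also holds interleukin genes, 3 passed the filter on dim probe sets. Ifna1 differed by 0.01. The median of the 3 was 0.06, which may not be a value of interferons alone. Ifnb1 and Ifng were not among the genes measured, nor were Isg15 and Cd274. Of 8 receptor and kinase genes 2 had a difference above 0, with a median of -0.07 beside 0.05 for all genes tested. Ifnar1, a chain of the type I receptor, was at 8.53, 8.86, 8.46, 8.48 and 8.24 against 8.44, 8.66, 8.52, 8.58 and 8.34. The classes overlapped fully, and its difference of 0.01 (SE 0.14) turned negative under several settings. Differences were -0.12 for Ifnar2 (SE 0.19), -0.03 for the interferon gamma receptor chain Ifngr1 (SE 0.47) and -0.11 for Ifngr2 (SE 0.18).

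Among 9 transcription factors of the pathway, 8 had a difference above 0, with a median of 0.39. Irf7 and Irf9 did not overlap (22.2%, against 0.52% of all genes tested). Irf7, which drives the second wave of type I interferon, was at 9.22, 7.78, 8.15, 8.53 and 7.40 against 7.02, 6.61, 6.50, 5.51 and 5.66. Tumours 66 and 29 were the highest, and the difference was 1.96 (SE 0.38, 3.89-fold, adjusted p = 0.471). Irf9, a DNA-binding partner of Stat2, was at 7.34, 7.12, 6.82, 7.12 and 6.65 against 6.62, 6.56, 6.19, 6.61 and 6.40, a difference of 0.53 (SE 0.16). Tumour 331 at 6.65 and tumour 353 at 6.62 almost met. Stat2 differed by 0.39 (SE 0.18) and Irf1, a factor of the interferon gamma arm, by 0.27 (SE 0.22), both with overlap. Within the set of arrays of the higher bioB to bioC ratio (2 tumours against 4) the median of these factors was 0.06, and within the other set (3 against 1) it was 0.79.

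The set called interferon-induced genes here was pooled from the lists of sensors and their adaptors, antiviral effectors, ISG15 enzymes, GTPases and p200 proteins. A gene entered through its list and not through measured induction, and the set includes adaptors such as Mavs. Of 102 listed genes 86 were named and 78 measured. Of these, 69 had a difference above 0, 24 passed an unadjusted p below 0.05 with a fold of at least 2 and 15 did not overlap (19.2%). Over all genes tested, 0.598% were higher at that p and fold, and 0.52% were higher without overlap. The median difference was 0.46, against 0.05 over all genes tested, of which 7466 lay above 0. The mean over the 78 genes ran from 7.10 to 7.96 in Ifit1-high and from 6.56 to 6.99 in Ifit1-low tumours. The median was 0.75 within the arrays of the lower bioB to bioC ratio, 0.39 within those of the higher ratio and 0.46 with the set as a covariate. It was 0.45 with the Gapdh ratio and 0.54 with the macrophage marker mean as a covariate, and 0.39 to 0.59 when 1 tumour at a time was left out. After 75th percentile scaling 14 of the 15 genes still did not overlap, and after quantile normalization 12. In bulk samples, fewer cells with a response and less RNA per cell cannot be told apart.

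Of 42 antiviral effectors 38 had a difference above 0, with a median of 0.48. Of the 42, 8 did not overlap (19%, against 0.52% of all genes tested): Oasl2, Ddx60, Rtp4, Ifit2, Ifit3, Oas1a, Phf11d and Oasl1. Ifit2, an Ifit1 paralogue that also binds RNA, ran from 6.95 in tumour 330 to 8.02 in tumour 64 against 5.58 in tumour 119 to 6.32 in tumour 353. It differed by 1.51 (SE 0.26, adjusted p = 0.266). Ifit3, a partner of Ifit1 in the same RNA-binding complex, was at 9.28, 9.01, 9.40, 8.41 and 8.15 against 7.81, 7.53, 7.80, 7.54 and 7.49, a difference of 1.22 (SE 0.24, adjusted p = 0.471). Oas1a, whose product activates RNase L, was at 7.89 ± 0.55 (SD, n = 5) against 6.81 ± 0.42. Among effectors that overlapped were Bst2, which tethers budding virus (difference 1.59), Xaf1 (1.37), Rsad2, the enzyme viperin (1.24), and Lgals3bp (1.18). The effectors were not uniform: Ifitm1, a membrane protein that hinders viral fusion, differed by -0.35, Ifi35 by -0.29, Mx1, a dynamin-like antiviral GTPase, by 0.19 and Cmpk2 by 0.01.

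The GTPases of the Gbp and Irg families had the largest median of the pathway lists, 1.29, and all 10 measured members lay above 0. Their mean ran from 6.18 to 8.27 in the high class and from 5.35 to 6.03 in the low class. Iigp1, which disrupts the vacuoles of parasites, was at 9.40, 7.05, 8.32, 7.58 and 6.50 against 6.45, 5.93, 5.91, 5.59 and 5.42. Tumours 331 and 353 were nearly level, and the difference was 1.91 (SE 0.48, adjusted p = 0.926). Gbp7 was at 9.16, 8.39, 8.07, 8.35 and 7.31 against 6.71, 6.91, 6.59, 6.83 and 6.47, a difference of 1.56 (SE 0.29, adjusted p = 0.413). Gbp6 (1.69), Irgm1 (1.31) and Gbp2 (1.27) were higher on average and overlapped.

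Sensors split. Of 16 sensors and their adaptors, 11 had a difference above 0 and the median was 0.10. Besides Ifih1, Dhx58, which encodes the regulator LGP2 of RNA sensing, was at 6.05, 4.84, 5.21, 4.89 and 4.96 against 4.41, 3.64, 4.44, 3.69 and 3.64, with tumour 183 at the floor and tumour 119 just above it. Zbp1, a sensor of left-handed nucleic acid, was at 7.65, 6.79, 7.73, 6.70 and 6.81 against 6.38, 6.10, 6.01, 6.29 and 6.43. Dhx58 differed by 1.22 (SE 0.27) and Zbp1 by 0.89 (SE 0.23). The DNA sensor Cgas differed by 0.22, its adaptor Sting1 by 0.08, the RNA sensor adaptor Mavs by -0.06 and the endosomal receptor Tlr7 by -0.39.

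Of 5 genes of ISG15 conjugation, a ubiquitin-like modification, all 5 lay above 0, with a median of 0.42. Usp18, which removes ISG15 and blocks the type I receptor, was at 7.57, 6.08, 7.98, 7.56 and 6.02 against 5.28, 4.98, 5.26, 4.85 and 4.59. Tumours 64 and 331 were low in their class but above the other class, and the difference was 2.05 (SE 0.39, 4.15-fold, adjusted p = 0.413). The p200 genes had a median of 0.69, led by Mndal (1.44), with 0 of 5 free of overlap, beside 0.52% of all genes tested higher without overlap. Ifi202b, a p200 protein that binds DNA, was at 9.22, 8.12, 8.29, 7.76 and 7.89 against 7.39, 9.59, 7.66, 7.72 and 8.07, a difference of 0.17 (SE 0.42). It did not follow the classes, and the actin regulator Cap1 differed by 0.38 (SE 0.25). The other inhibitors of the pathway, among them Socs1 and Socs3, had a median of 0.01 over 6 genes.

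Antigen presentation and chemokines were less clearly parted. Of 14 MHC class I presentation genes 13 lay above 0, with a median of 0.50, but the list mean ran from 7.76 to 8.91 against 7.40 to 8.66. Free of overlap were 0 of the 14. Over all genes tested 0.52% were higher without overlap, so a count of 0 in so short a list says little. H2-K1, a class I heavy chain, was at 11.62, 10.58, 11.85, 10.81 and 9.80 against 9.94, 11.90, 9.80, 9.88 and 8.46. Low tumour 183 had the highest level of all 10, and the difference was 0.94 (SE 0.58). The immunoproteasome subunit Psmb8 differed by 0.55 (SE 0.66). Of 6 MHC class II genes 5 lay above 0 with a median of 0.34, but the median was 1.60 within one control ratio set and -0.56 within the other.

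Of 18 chemokines 7 lay above 0, with a median of -0.06. Cxcl10, an interferon-induced ligand that draws T cells, was at 7.48, 5.71, 7.33, 5.92 and 5.07 against 4.15, 5.49, 4.98, 3.75 and 4.20. Tumours 66 and 330 were well above all others and tumours 331 and 183 overlapped, and the difference was 1.79 (SE 0.50, adjusted p = 0.926). Its relatives differed by 1.69 for Cxcl9 and 1.22 for Ccl5, while the neutrophil attractants Cxcl5 and Cxcl2 differed by -1.22 and -1.02 with SEs of 1.04 and 1.17. In the complement list 5 of 11 lay above 0 (median -0.09), with C2 at 1.03.

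**Figure D3:**
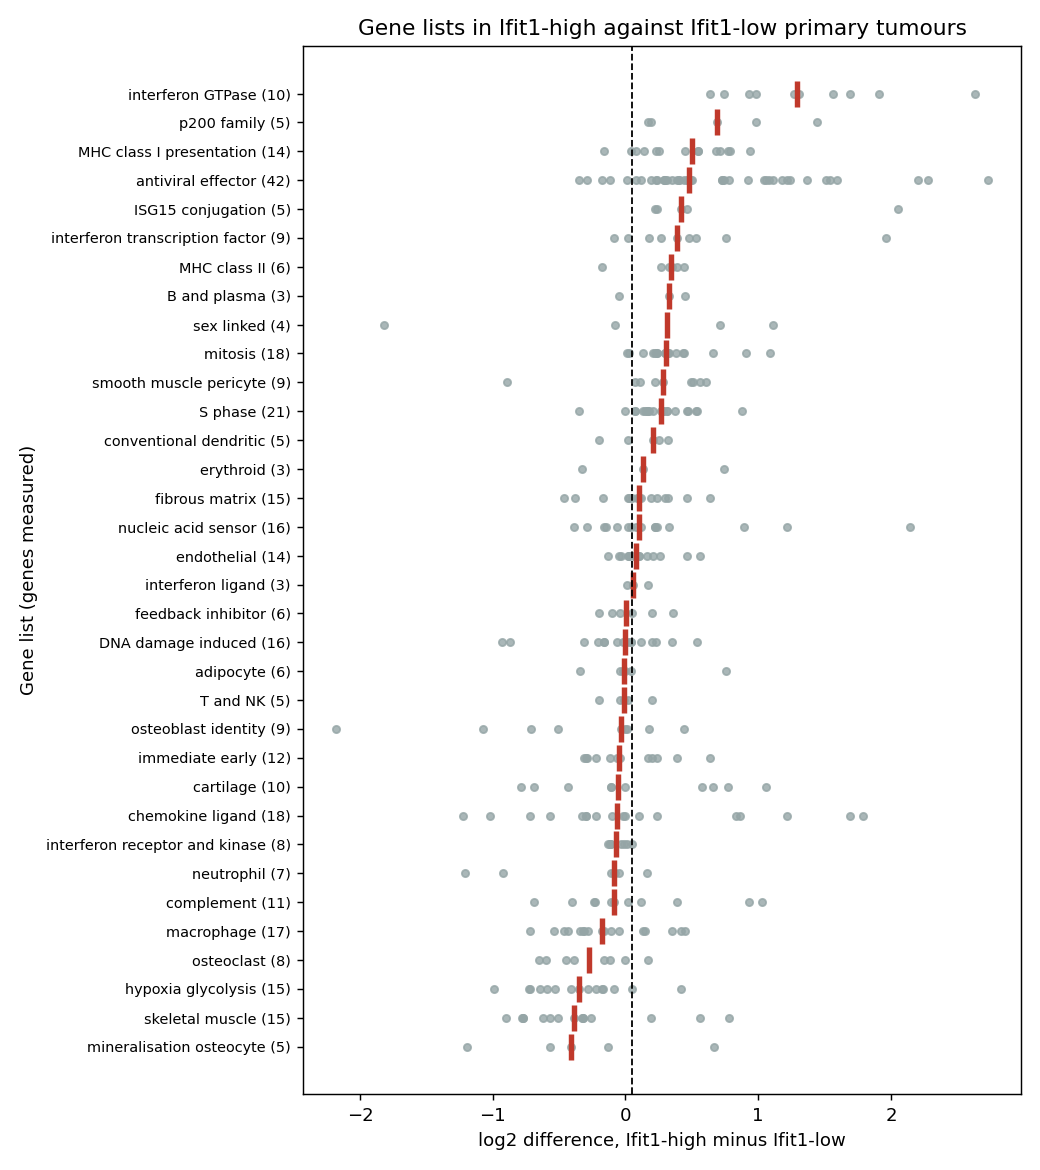
Log2 difference of Ifit1-high minus Ifit1-low tumours for each measured gene (grey points) of the gene lists with at least 3 measured genes, with the list median (red bar). The dashed line is the median of all 12886 genes, 0.05; the GTPase list has the highest median, 1.29, and 10 of its 10 genes lie to the right of 0.

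Lists of immune cell markers had class ranges that overlapped. All 17 macrophage markers were measured, 5 lay above 0 and the median was -0.18, and their mean ran from 8.08 to 8.77 in the high and 7.93 to 9.41 in the low class. Of 15 named T and NK cell markers 5 were measured, with a median of -0.01 and a mean of 5.81 to 6.23 against 5.67 to 6.32. Of 5 plasmacytoid dendritic cell markers 2 were measured, and the defining marker Siglech was not. Their median difference was -0.68. Conventional dendritic (0.21), B and plasma cell (0.33), neutrophil (-0.09), erythroid (0.13) and endothelial (0.08) lists also had class ranges that overlapped. Of 15 skeletal muscle markers the mean ran from 4.92 to 10.92 in the high and 4.53 to 10.71 in the low class.

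Of the cell cycle genes, all 18 measured mitosis genes had a difference above 0, with a median of 0.30, and 19 of 21 S phase genes did, with a median of 0.27. Over all genes tested 7466 of 12886 lay above 0. Class ranges overlapped in both lists. The mitosis mean ran from 8.04 to 9.23 in the high and 7.54 to 8.89 in the low class. The S phase mean ran from 8.30 to 9.37 in the high and 8.14 to 8.76 in the low class. The mitosis median was 0.12 without tumour 179 and 0.17 without tumour 29, and the S phase median 0.17 and 0.10. Within the arrays of the higher bioB to bioC ratio these medians were 0.16 and 0.01. The proliferation marker Mki67 was at 9.91, 9.31, 9.41, 10.15 and 8.80 against 9.82, 8.92, 8.27, 9.61 and 9.32, a difference of 0.33 (SE 0.33). None of these lists held a gene free of overlap, where over all genes tested 0.52% were higher and 0.171% lower without overlap. Of 15 hypoxia and glycolysis genes 2 lay above 0, with a median of -0.35, and the stress gene Ndrg1 had the largest shift, -0.99. The osteoblast identity list had a median of -0.03. Ibsp, the bone matrix protein bone sialoprotein, was at 10.56, 11.85, 4.73, 11.84 and 11.44 against 10.85, 13.04, 12.64, 12.51 and 12.26, a difference of -2.18 (SE 1.23) that was -0.84 without tumour 330. The median of the list without that tumour was 0.26. Alx1, a homeobox gene of the head, differed by 0.77 (SE 1.16, and -0.02 without tumour 183), and Xist, which silences the X chromosome of females, by -1.82 (SE 1.47). Xist ran from 5.81 to 13.04 in the high and from 8.32 to 12.92 in the low class.

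Outside the interferon lists, 19 of the 67 genes higher without overlap lay on chromosome 9 (28.4%), which holds 5.62% of the genes tested; this was noticed in the data and is given without a test. Of 724 genes tested on chromosome 9, 19 were higher without overlap (2.62%) and 1 lower, 565 lay above 0 (78%) and the median difference was 0.18. The tumour median of the chromosome's genes, relative to the mean of the 15 tumours, was 0.13, 0.04, 0.24, 0.16 and 0.05 in the high class and -0.03, -0.08, -0.15, -0.00 and -0.11 in the low class. Of 20 chromosomes it alone had classes that did not overlap with deposited intensities. Chromosome 19, where Ifit1, Ifit2 and Ifit3 lie, held 9 genes higher without overlap among 448 (2.01%), 7 of them outside the interferon lists, and its classes overlapped. For chromosome 9, the classes overlapped after 75th percentile scaling (tumour 64 at -0.09 and tumour 353 at 0.08). They also overlapped when its median was taken relative to each tumour's own median of all genes (-0.03 and 0.03). With that scaling, the chromosome 9 genes higher without overlap numbered 15, of which 11 were among the 19. Among the 19 were Tex9 (1.43, SE 0.32, adjusted p = 0.659), Zwilch, a kinetochore protein (0.98), and Pik3r4, a subunit of a vesicle lipid kinase (0.94, SE 0.15, adjusted p = 0.228). DNA copy number was not measured.

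**Figure D4:**
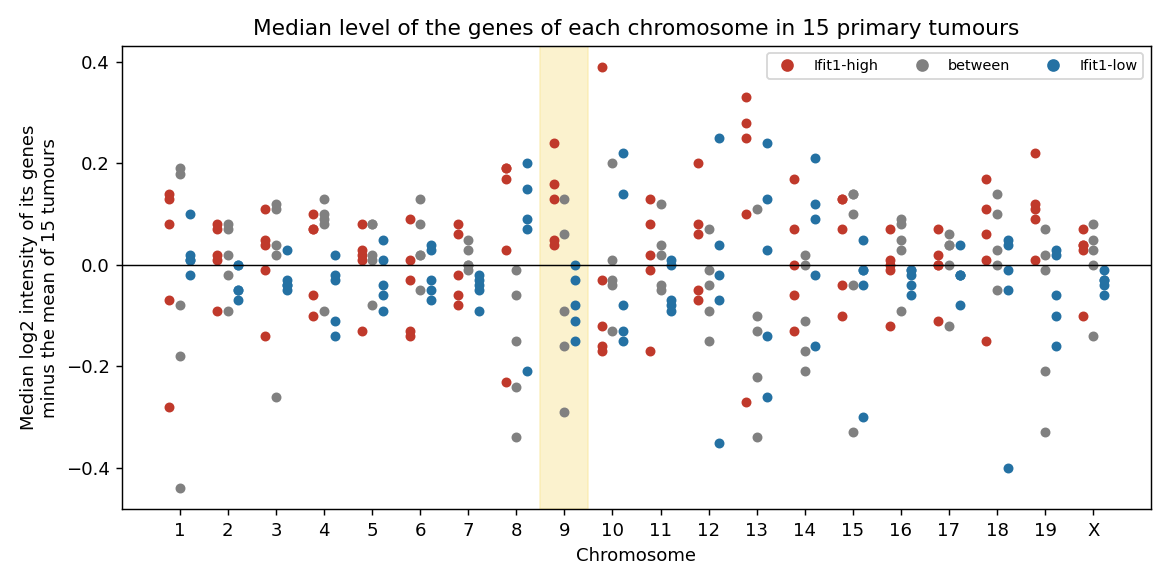
Median log2 intensity of the tested genes of each chromosome minus the mean of the 15 primary tumours, 1 point a tumour, with deposited intensities. The shaded chromosome 9 has Ifit1-high tumours at 0.04 to 0.24 and Ifit1-low tumours at -0.15 to -0.00, and tumours between at -0.29 to 0.13.

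Of the remaining genes higher without overlap, the largest differences were in AW112010, a transcript induced in immune cells (1.63, SE 0.37), and Slc12a1, a kidney salt transporter (1.19, SE 0.26). AW112010 was at 8.36, 7.07, 6.87, 6.87 and 5.90 against 5.72, 5.11, 5.55, 5.25 and 5.27. The 10 largest of the 22 lower genes were small, from Ajuba, a junction and Hippo pathway scaffold (-0.67, SE 0.19), to Ift57, a transport protein of cilia (-0.44, SE 0.14). Ajuba was at 6.83, 6.41, 6.64, 6.69 and 6.39 against 6.94, 7.83, 7.05, 7.01 and 7.46, so tumour 66 was close to tumour 353. The others named are Vmn2r29 (-0.59), Akap17b (-0.56), Stk17b (-0.55), Zfp579 (-0.52), Dusp12 (-0.52), Pgm1 (-0.51), Tmem62 (-0.48) and 1700007K13Rik (-0.45), at adjusted p of 0.659 for Vmn2r29 and 0.926 for the rest.

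The tumours of a class differed in how strongly they showed the pattern. Tumour 66 was the highest of its class for 37 of the 78 interferon-induced genes and for 11 of the 15 that did not overlap. Tumour 331, the last of the high class by Ifit1, was the lowest of it for 10 of the 15. Tumour 119, the lowest in Ifit1, was the lowest of the low class for 10 of the 15. The 5 tumours between the classes did not enter the comparison, but they were placed there by Ifit1. Their median lay between the class medians for 14 of the 15 genes (93.3%), where it did so for 45 of all 67 genes higher without overlap (67.2%). It did so for 50 of the 78 (64.1%), beside 2515 of all 12886 genes (19.5%). As counted, this needs a high class median above the low class median. Of the 78 genes 69 had a difference above 0, against 7466 of all 12886, so the 2 shares are not alike in kind.

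Samples that share a tumour number with a primary tumour were set beside it, 1 pair at a time and with no test. The secondary tumours of 3 Ifit1-high primaries were measured. Means over the 78 genes were, in the primary and the secondary, 7.50 and 7.47 for tumour 29, and 7.34 and 7.56 for tumour 64. For tumour 66 the mean was 7.96 in the primary and 7.53 in the secondary sample, whose title calls it a cell line and whose source calls it tumour tissue from one, and 16 of 78 genes were higher in the secondary (20.5%, against 43.9% of all genes). Tumour 94, between the classes, had 6.80 and 6.82, and its secondary was the lowest of 4 secondaries for 58 of 78 genes (74.4%, against 29.3% of all genes).

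The primaries here were placed by Ifit1, so the pairs with cell lines are a description. Lines 179 and 182 came with numbers of Ifit1-low primaries, and their means over the 78 genes were 8.27 and 7.59 against 6.78 and 6.77 in the tumours. Of 78 genes 63 were higher in line 179 than in its primary (80.8%, against 50.7% of all genes) and 54 in line 182 (69.2%, against 47.4%). Line 176 went the other way, with a mean of 6.55 against 7.10, and it was the lowest of 4 lines for 60 of 78 genes (76.9%, against 30.1% of all genes). Line 213, with no primary here, had a mean of 8.51, and the osteoblast cultures had 7.89, 7.81 and 7.61.

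**Figure D5:**
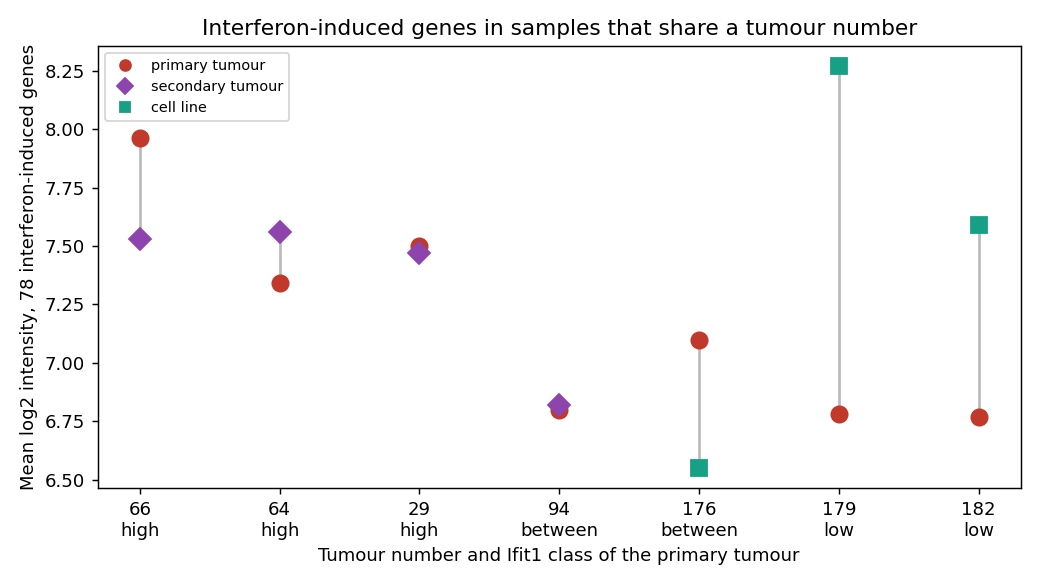
Mean log2 intensity of the 78 interferon-induced genes in the primary tumour, secondary tumour and cell line that share a number, 1 point a sample, with the Ifit1 class of the primary below. The secondary of tumour 29 (7.47) nearly covers its primary (7.50), while lines 179 and 182 lie above and line 176 below theirs.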

How the data were processed

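RNA of 26 mouse samples was measured on 1-colour oligonucleotide arrays, 1 array a sample. The authors deposited linear intensities, 1 for each of 45101 probe sets (64 controls), from 0.497 to 21734; how the authors summarised, background-corrected and scaled them is not given in the sources used here, and close array medians led to their use as deposited. Probe sets were named from the platform annotation with symbols updated through a RefSeq gene table (GRCm38.p6): 34958 had 1 symbol, 932 several and 9211 none, and 34754 matched a gene identifier.

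Values below the 20th percentile (12.5, or 3.64 on the log2 scale) were set to it, and log2 was taken. The filter asked for 3 or more of the 26 arrays above the overall median of 52.6, and each gene was represented by the brightest of its probe sets that passed. Without Ifit1, which has 1 probe set, 12886 genes were tested with limma 3.58.1 in R 4.3.3 on the 10 arrays of both classes, with no covariate, with Benjamini-Hochberg adjustment across all of them. The step was tested on simulated data. Errors are limma's moderated SE or the SD over tumours, and the number of arrays limits the precision. The labels number the tumours and do not say that each came from its own animal. The p-values therefore set a class difference against the spread of these samples within the classes. Because the classes are the ends of a ranking by Ifit1, p-values of genes that follow Ifit1 do not have their nominal meaning.

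Groups come from the labels and classes from Ifit1. The members and the 35 gene lists (372 of 496 listed genes kept) were chosen with earlier results of these data known. The naming rule asked for called genes, and 0 were called, so it left 20 of 25 genes that it always names; genes with the largest differences and no overlap (15 higher, 10 lower, up to 4 a list) and a few more list members were then named after their values were seen. Alternatives changed the floor, filter, scaling, probe set rule, arrays in the fit, covariates and the tumours left out. Promoter windows are RefSeq's, and gene order and chromosomes come from the same assembly.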

Additional observations from a re-analysis of the deposited data

Results flagged for a closer look

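In groups of 4 or 5 samples, the highest or lowest sample was compared with its gap to the next, and 8 of 100 groups (8%) held 1 that stood far from the others, where chance gives about 1 in 20. The groups share tumours and genes, so they are not independent of each other. Tumour 330 did so 3 times within the Ifit1-high class. Its mean of the osteoblast identity genes was 8.25 on the log2 scale, against 11.02 to 11.20 in the other 4 tumours, its Ibsp, a bone matrix protein gene, was 4.73 against 10.56 to 11.85, and its Stk17b was 9.26 against 9.86 to 10.10. Ibsp is itself an osteoblast identity gene, so its value and that mean are not separate observations. Tex9, on chromosome 9, was 7.67 in Ifit1-high tumour 29 and 6.34 to 6.68 in the others of its class. Akap17b was 5.43 in Ifit1-high tumour 331 and 6.18 to 6.44 in the others. Ddx60 was 4.12 in Ifit1-low tumour 179, while the other 4 lay at the floor of 3.64, so that its gap rests on values set to the floor. Outside the classes, Ifit1 was 3.92 in cell line 176 and 10.17 to 11.05 in the other lines, and the mean of the 78 interferon-induced genes was 6.82 in secondary tumour 94 and 7.47 to 7.56 in the other secondary tumours.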

How the results depend on the processing

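The count of genes called higher was 0 with the main settings, 4 with all 15 primary tumours in the fit, 15 with Ifit1 as a slope over the 15 tumours, 2 without tumour 29 (Ddx60 and Nr2f1) and 0 under all other settings run, and the count called lower was 0 under every setting run. Leaving out 1 tumour at a time gave 0 to 2 higher. The median of the 78 interferon-induced genes stayed above 0, from 0.39 to 0.75, and the sensor median ran from 0.07 to 0.20 with 1 tumour left out. With the filter at the 75th percentile the effector median was 0.85, with every kept probe set tested the B and plasma cell median was 0.10, and with the control ratio set as a covariate the sex-linked median was -0.53. Within control ratio set 1 (3 tumours against 1) medians were 0.79 for transcription factors, 0.29 for sensors, 0.80 for effectors, 2.05 for GTPases, 1.45 for p200 genes, 0.75 for the 78 genes, 1.60 for MHC class II, 0.36 for macrophage, 0.78 for endothelial, 3.80 for skeletal muscle, 1.37 for adipocyte, 0.64 for S phase, -0.09 for hypoxia, 0.60 for immediate early and -0.82 for sex-linked genes. Within set 2 (2 against 4) they were -0.25 for receptors and kinases, 0.06 for transcription factors, 0.09 for p200 genes and -0.56 for MHC class II. The cause of these shifts was not tested, and each set holds few tumours.

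Differences near 0 changed sign. Ifnar1 was -0.07 after quantile normalization and after 75th percentile scaling, -0.03 with the control ratio set as a covariate, -0.20 within set 2, -0.04 with the Gapdh ratio as a covariate, and -0.08, -0.04 and -0.01 without tumours 64, 119 and 353. Ifnar2 was 0.16 as the mean of its probe sets and 0.15 within set 1. Ifngr1 was 0.13 with array weights and 0.01 with the macrophage covariate. With 1 tumour left out, Ifngr1 ran from -0.37 to 0.34, Ifngr2 from -0.21 to 0.01, Ifi202b from -0.07 to 0.55 and Alx1 from -0.02 to 1.69. Alx1 was -0.19 with the control ratio covariate and -0.74 within set 1, Xist was 0.32 within set 1 and Mki67 -0.05 within set 2. Other differences of named genes kept their direction, and 18 of their values under an alternative passed the threshold.

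The Gapdh covariate was chosen after seeing the data. A ranking by all Ifit1 probe sets was not run, since there is 1. No paired analysis was possible because the 2 classes share no tumour numbers. Values at the floor give bounds only, and 5 tumours a class leave wide errors.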
